A study of Rattus norvegicus with 6 samples.

Results

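The insulin-like growth factor (IGF) family was followed in whole hippocampus of rats from 2 lines, Syracuse High Avoidance (SHA) and Syracuse Low Avoidance (SLA). The family was taken as 9 genes: the ligands Igf1 and Igf2, the receptor Igf1r and the binding proteins Igfbp1 to Igfbp6. Every probe set of the array whose annotation names exactly 1 gene, and that gene one of these 9, was included. This gave 23 of 8799 probe sets, which cover 8 of the 9 genes, out of 4736 genes that the array names. Igfbp4 was named by none of them and is not analysed here. There were 3 SHA and 3 SLA pools, numbered 1 to 3 in each line, every pool held hippocampi of 3 rats, and every pool had an oligonucleotide array to itself. SHA rats learn two-way active avoidance well and SLA rats poorly, a task in which the animal avoids a signalled shock by crossing a box. Rats of both lines had gone through the task, and tissue was taken 2 weeks later. Without untested rats, what the lines brought to the task and what the task did cannot be told apart. The pool is the replicate (n = 3 per line). The labels do not say how rats were assigned to pools, and p-values measure the spread between these pools.

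IGF1 and IGF2 are small secreted peptides related to insulin, and both signal mainly through the IGF1 receptor, a tyrosine kinase at the cell surface that feeds the PI3 kinase and ERK pathways. In extracellular fluid most IGF is held by binding proteins, which prolong its life, limit its access to the receptor or deliver it to cells. In the adult brain Igf1 is made by some neurons and by glia, while Igf2 comes largely from the choroid plexus, the leptomeninges and vessels. IGF2 has been studied in hippocampal memory, and Igf2 is an imprinted gene expressed from 1 parental copy in most tissues.

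Of the 23 probe sets, 15 were bright enough to be tested and represent 7 genes, and on none of these did the lines differ beyond the spread of the pools. None passed limma's test across 6555 probe sets, where all 15 had an adjusted p of 1.00. None had an unadjusted p under 0.05, against 1.5% of all probe sets tested (98 of 6555), and over all probe sets too none passed after adjustment (0%). None of the 15 had 3 SHA pools wholly above or below the 3 SLA pools, against 5.66% of all, although 1 of the 8 untested probe sets, of Igfbp2, did. In SHA, 4 of the 15 were higher and 11 lower, with a median log2 difference of -0.10, while over all 6555 probe sets the median was -0.01 with 3155 higher and 3400 lower. The split of the 15 was 5 higher to 8 lower among the 13 tested after quantile normalization and 4 to 10 among the 14 tested after median centring. A difference is the mean log2 value of SHA less that of SLA ± its standard error, from the fit without the pool number. An intensity is a linear value as deposited, given per pool or as mean ± SD. The arrays measure RNA of the whole tissue, so fewer cells of a type and less RNA per cell cannot be told apart. Levels of different probe sets are not compared with each other, since each has its own response.

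**Figure D1:**
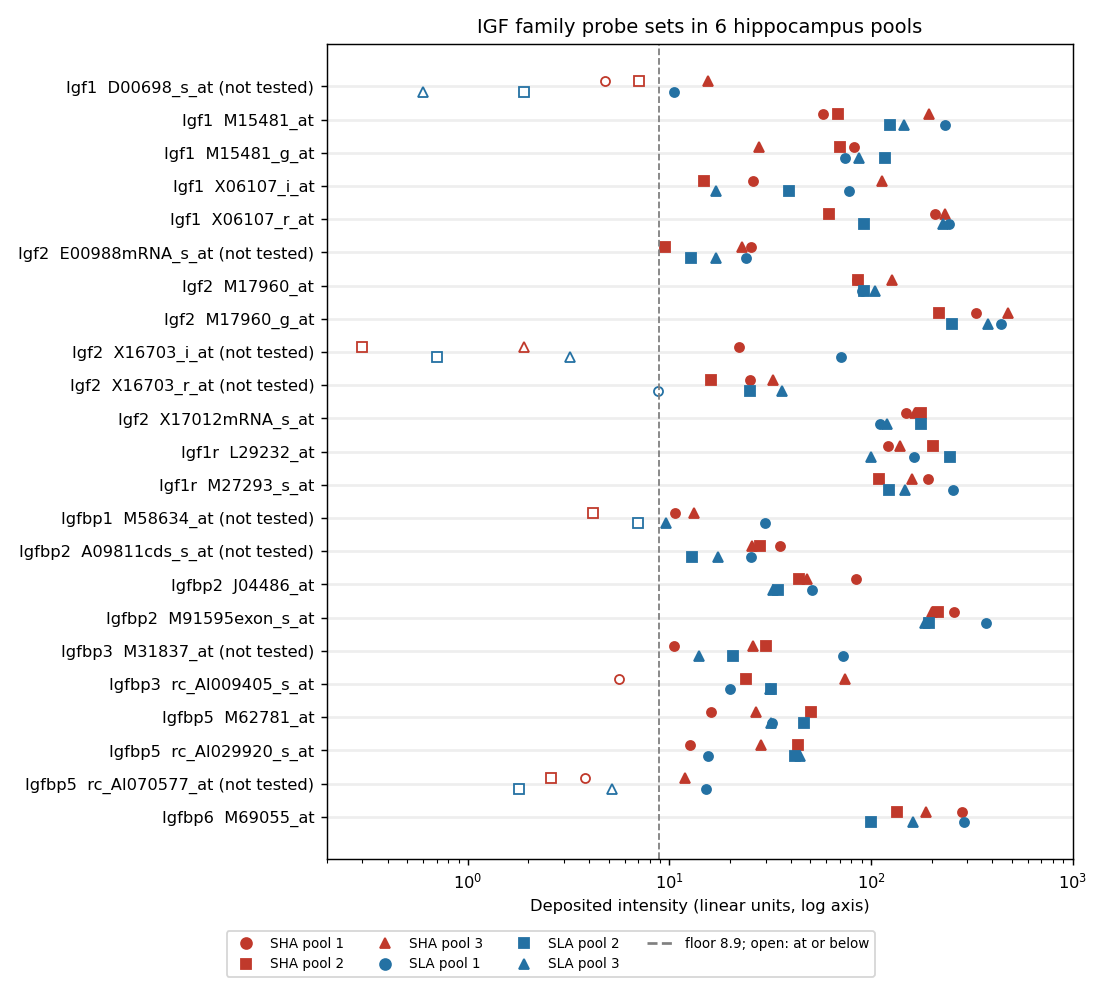
Deposited intensity (linear units, log axis) of the 23 IGF family probe sets in each of the 6 pools, SHA in red and SLA in blue, with a symbol for each pool number. Open symbols lie at or below the floor of 8.9. The SHA and SLA symbols overlap in every row that was tested, and only the untested Igfbp2 row A09811cds_s_at has all 3 SHA pools above all 3 SLA pools.

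Igf1, the ligand induced by growth hormone in liver and also made locally in brain, had the largest differences of the 15, on a pair of probe sets designed to 1 sequence. Probe set M15481_at read 58.1, 68.3 and 193.2 in SHA pools 1, 2 and 3 and 232.2, 124.0 and 145.3 in SLA pools 1, 2 and 3. SHA pools 1 and 2 lay below every SLA pool, and SHA pool 3 lay above SLA pools 2 and 3. The means were 107 ± 75.2 and 167 ± 57.3, a log2 difference of -0.82 ± 0.52 with a 95% interval of -1.98 to 0.35 (limma, unadjusted p = 0.15, adjusted p = 1.00). The second probe set of that sequence, M15481_g_at, read 82.1, 70.5 and 27.8 in SHA and 74.7, 116.9 and 87.2 in SLA. Here SHA pool 3 was the lowest of the 6 pools and SHA pool 1 lay within the SLA range. Its difference was -0.75 ± 0.54 with an interval of -1.97 to 0.47 (unadjusted p = 0.20).

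The means of these probe sets were alike in direction, but the pools behind them were not. Within the pool numbers 1, 2 and 3 the difference was -2.0, -0.86 and 0.41 on M15481_at, and 0.14, -0.73 and -1.65 on M15481_g_at. Without SHA pool 3 the difference was -1.35 on M15481_at (limma, unadjusted p = 0.018, adjusted p = 0.999) and -0.26 on M15481_g_at. Without SHA pool 1 it was -0.49 and -1.04, in that order. Both remained below 0 under quantile normalization and median centring.

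The other Igf1 probe sets lay closer to no difference. X06107_r_at read 208.1, 62.0 and 232.2 in SHA and 243.2, 92.5 and 227.1 in SLA, a difference of -0.26 ± 0.58. On this probe set the pools numbered 2 of both lines were low and the other 4 lay close together. X06107_i_at read 25.9, 14.8 and 113.3 in SHA and 78.0, 39.4 and 17.0 in SLA, a difference of -0.09 ± 0.90. The difference turned to 0.04 after quantile normalization. Over 15 alternative settings it ran from -0.93 to 0.90, with the opposite sign in 5. The within-number differences of this probe set, -1.59, -1.41 and 2.74, spanned the widest range of the 15 probe sets. The fifth Igf1 probe set, D00698_s_at, was not tested, since 4 of its 6 pools lay at or below the floor.

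Igf2, the ligand better known for fetal growth, was measured on 3 tested probe sets and showed little difference between the lines. The brightest of the gene, M17960_g_at, read 330.3, 217.7 and 475.7 in SHA and 442.5, 251.6 and 381.9 in SLA. The means were 341 ± 129 and 359 ± 97.5, a difference of -0.10 ± 0.35 with an interval of -0.90 to 0.69. M17960_at ran from 85.2 to 127.3 in SHA and from 90.3 to 104.2 in SLA, a difference of 0.03 ± 0.39 with an interval of -0.85 to 0.91. For these Igf2 probe sets a log2 difference of 1 in either direction, that is a doubling or halving, fell outside the interval. X17012mRNA_s_at read 148.7, 176.7 and 164.6 in SHA and 111.2, 177.7 and 120.3 in SLA. SHA pools lay above SLA pools 1 and 3, and SLA pool 2 lay above all of them, which gave 0.29 ± 0.34 (-0.48 to 1.05). The remaining 3 Igf2 probe sets were not tested. E00988mRNA_s_at read at most 25.4, X16703_r_at at most 36.1, and X16703_i_at had 4 of 6 pools at or below the floor.

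Igf1r, the receptor that both ligands share, differed by less than its spread on both of its probe sets. L29232_at read 121.7, 203.2 and 138.7 in SHA and 163.8, 245.3 and 100.5 in SLA, a difference of -0.08 ± 0.41 (-1.01 to 0.85). M27293_s_at read 191.8, 110.0 and 160.3 in SHA and 256.1, 122.8 and 147.9 in SLA, a difference of -0.15 ± 0.40 (-1.04 to 0.74). The pools numbered 2 were the highest pair on L29232_at and the lowest pair on M27293_s_at. The probe sets of this gene thus placed the pools numbered 2 at opposite ends, while both put the line difference near 0.

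Igfbp2, a binding protein abundant in brain and cerebrospinal fluid, had 3 probe sets that differed in what they read. J04486_at read 84.7, 43.7 and 48.3 in SHA and 51.2, 34.5 and 32.8 in SLA. Only SLA pool 1 reached into the SHA range, and the means were 58.9 ± 22.5 and 39.5 ± 10.2. The difference was 0.54 ± 0.55 with an interval of -0.70 to 1.78 (limma, unadjusted p = 0.35, adjusted p = 1.00), and 0.25 without SHA pool 1. Within the numbers 1, 2 and 3 it was 0.73, 0.34 and 0.56. Of the 15 probe sets tested this was the 1 with the same sign within all 3 numbers, a property of 28% of all probe sets tested.

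A09811cds_s_at, also of Igfbp2, was among the dimmest 25% of probe sets, so it did not enter the test. It read 35.5, 28.0 and 25.7 in SHA and 25.3, 13.0 and 17.5 in SLA. All SHA pools lay above all SLA pools, although SHA pool 3 and SLA pool 1 were nearly level. With no filter on dim probe sets the difference was 0.72 ± 0.37 (limma, unadjusted p = 0.10, adjusted p = 1.00). The brightest Igfbp2 probe set, M91595exon_s_at, did not go with these. It read 259.2, 214.8 and 200.7 in SHA and 371.7, 194.8 and 186.2 in SLA. SLA pool 1 was the highest of the 6 and SLA pools 2 and 3 the lowest, which gave -0.09 ± 0.34 (-0.86 to 0.68). Without SLA pool 1 the difference was 0.23.

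Igfbp5, which binds IGF and also extracellular matrix, lies next to Igfbp2 on chromosome 9 with 0 annotated protein-coding genes between them. M62781_at read 16.1, 50.2 and 26.8 in SHA and 32.3, 46.6 and 31.8 in SLA, a difference of -0.38 ± 0.67 (-1.88 to 1.12). rc_AI029920_s_at read 12.7, 43.6 and 28.6 in SHA and 15.5, 42.1 and 44.5 in SLA, a difference of -0.29 ± 0.77 (-2.03 to 1.44). On both, SHA pool 1 was the lowest of the 6 pools and the lines overlapped. The third, rc_AI070577_at, had 4 pools at or below the floor and was not tested.

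Igfbp6, which prefers IGF2 over IGF1, was covered by M69055_at alone. It read 281.6, 134.2 and 186.6 in SHA and 288.4, 100.1 and 162.3 in SLA. The means were 201 ± 74.7 and 184 ± 95.9, a difference of 0.20 ± 0.45 with an interval of -0.82 to 1.21. The order of the pool numbers was the same in both lines, with 1 the highest and 2 the lowest.

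Igfbp3, the main carrier of IGF in blood, and Igfbp1, an insulin-regulated binding protein made chiefly in liver, are neighbours on chromosome 14. For Igfbp3, rc_AI009405_s_at read 5.6, 24.0 and 74.7 in SHA and 20.0, 32.1 and 31.6 in SLA, a difference of -0.12 ± 0.87 that depends on the floor set under SHA pool 1. The second Igfbp3 probe set, M31837_at, was not tested and read between 10.6 and 30.0 in SHA and between 14.0 and 72.3 in SLA. The single Igfbp1 probe set, M58634_at, was not tested either, and its pools ranged from 4.2 to 13.2 in SHA and from 7.0 to 29.8 in SLA. With 2 Igfbp1 pools at or below the floor, no difference between the lines could be read for that gene at this signal.

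**Figure D2:**
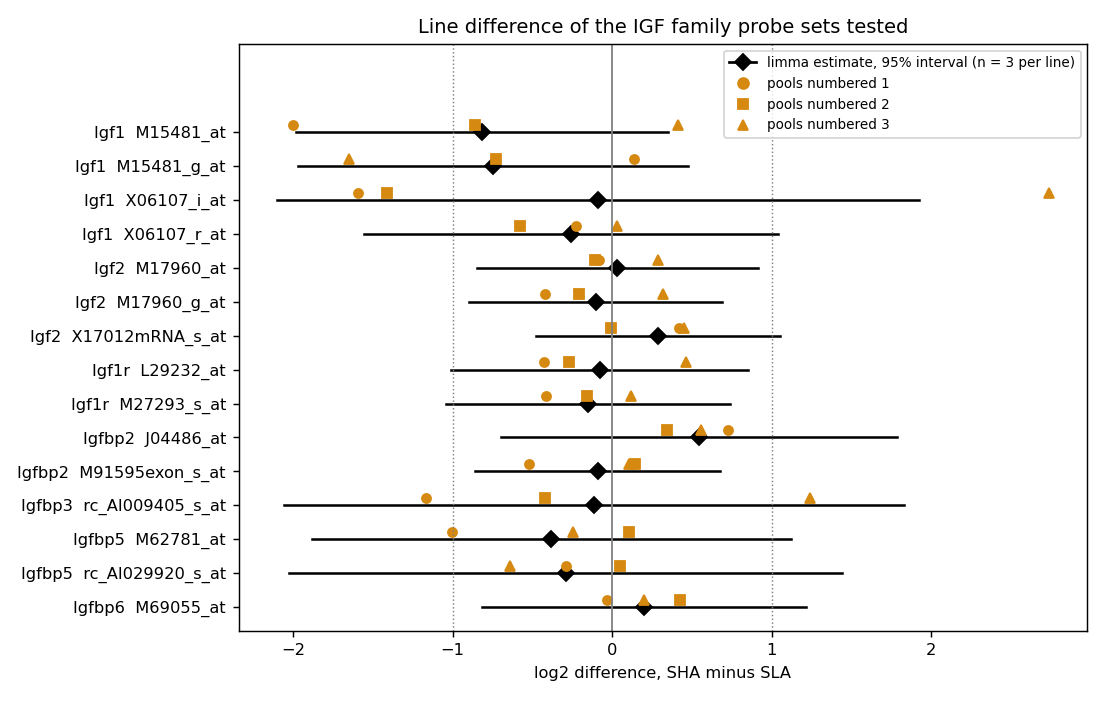
Log2 difference SHA minus SLA for the 15 IGF family probe sets tested. Diamonds and bars give the limma estimate and its 95% interval over 3 pools per line, and orange symbols give the difference between the pools of each number. Every interval includes 0, and Igfbp2 on J04486_at is the row whose 3 orange symbols all lie above 0.

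The variation of the IGF family was also set against the pool number. For each probe set the sum of squares of the log2 values over the 6 pools was split into line (1 degree of freedom), pool number (2) and remainder (2). The median share of the line was 3.22% over the 15 probe sets and 7.61% over all probe sets tested. The median share of the number was 78.7% and 62.4%, respectively. With 2 degrees of freedom against 1, the number takes the larger share on average even where neither has an effect. The share of the number exceeded that of the line in 14 of the 15, close to the 85.3% of all probe sets. Igf1 on M15481_at was the exception with 31.1% for the line and 23.7% for the number.

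The shares were most uneven for Igf1 on X06107_r_at, where the number held 94.6% and the line 2.79%. Igfbp6 followed with 93.9% and 3.22%, then Igfbp5 on rc_AI029920_s_at with 92.4% and 3.95%, and Igf1r on M27293_s_at with 89.1% and 3.60%. With the pool number as a block, the standard error of the line difference was smaller for each of the 15. For these 4 probe sets it was 0.26, 0.24, 0.59 and 0.26 in that order, against 0.58, 0.45, 0.77 and 0.40 without the block. With the block 0 of the 15 had an unadjusted p under 0.05, and the lowest adjusted p was 0.83 (limma). A test of the pool number in limma with the line as a term, chosen after the data were seen, gave an adjusted p of 0.034 for X06107_r_at and 0.071 for Igfbp6. At an adjusted p under 0.05 the test took 1 of the 15, against 498 of 6555 probe sets tested. At an unadjusted p under 0.05 it took 3 of the 15, against 28.4% of all probe sets tested. The 3 were X06107_r_at, Igfbp6 and Igf2 on M17960_g_at. Both pools numbered 2 were lowest in X06107_r_at, M17960_g_at, M27293_s_at and Igfbp6, and highest in Igf2 on X17012mRNA_s_at, Igf1r on L29232_at and Igfbp5 on M62781_at. This was 4 and 3 of 15, where 19.3% and 16.7% of all probe sets tested had both pools numbered 2 lowest and highest. Both pools numbered 1 were highest in 4 of 15, namely M27293_s_at, Igfbp6 and both tested Igfbp2 probe sets, and lowest in 2, namely Igfbp3 on rc_AI009405_s_at and Igfbp5 on rc_AI029920_s_at, against 13.6% and 17.8% of all. Both pools numbered 3 were highest in 1, Igf2 on M17960_at, and lowest in 0, against 8.88% and 4.9%.

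**Figure D3:**
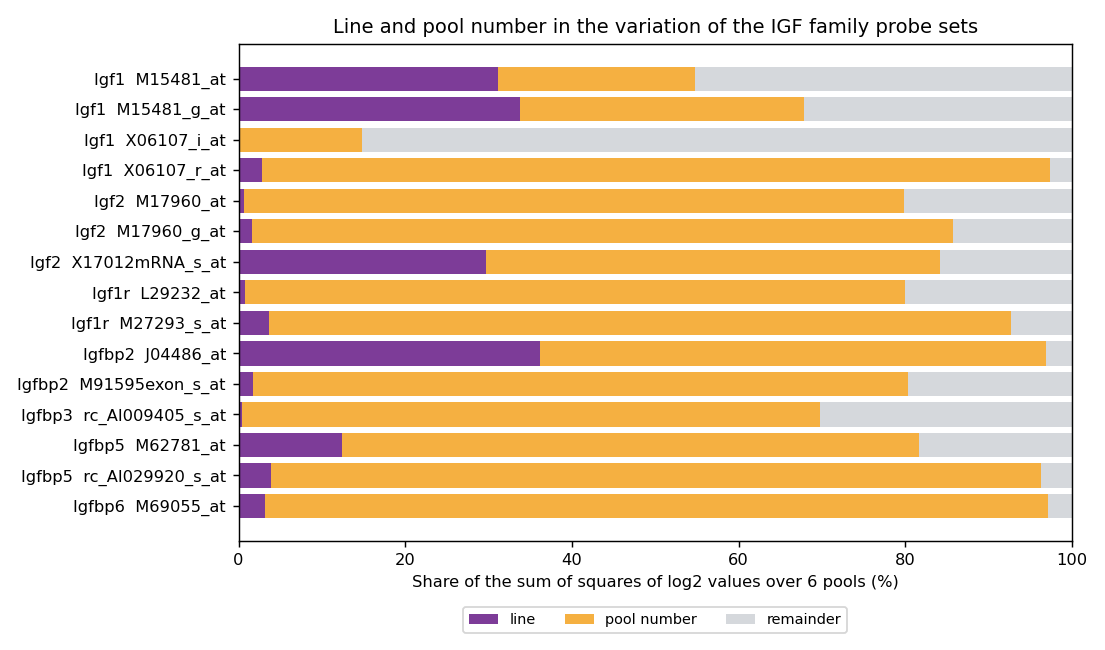
Share of the sum of squares of log2 values over 6 pools that falls to line, pool number and remainder, in percent, for the 15 IGF family probe sets tested. The part of the number exceeds that of the line in every row but Igf1 on M15481_at, the remainder is the largest part in Igf1 on M15481_at and X06107_i_at, and the line reaches its largest share, 36.2%, in Igfbp2 on J04486_at.

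The arrays differed by pool number in other measures too. Transcripts of bacterial and phage genes that serve as array controls had a geometric mean intensity of 5458 in SHA pool 1 and 12282 in SLA pool 1. The same measure was 1121 and 640 for the pools numbered 2, and it was 2279 and 1564 for number 3. The share of values at or below the floor was between 4.95% and 15.9%, with the highest shares in the pools numbered 2. RNA integrity, read as the log2 difference of the 3' and 5' probe sets of Gapdh, gave 0.20 ± 0.13 for SHA and 0.17 ± 0.23 for SLA (two-sided exact permutation test, p = 0.9, where 0.1 is the smallest possible). By pool number it was 0.07 and -0.02 in the SHA and SLA pool of number 1, 0.20 and 0.09 for number 2, and 0.33 and 0.43 for number 3. The same measure of beta-actin gave 0.66 ± 0.11 for SHA and 0.52 ± 0.10 for SLA (two-sided exact permutation test, p = 0.2). The part of these measures in the values of the IGF family was not tested.

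The genes whose profile over the 6 pools was closest to that of Igf2 on M17960_g_at and of Igfbp2 on M91595exon_s_at were found among the tested probe sets with 1 gene name. Likeness was the root mean square difference of log2 values, each centred on its own mean. For Igf2 the nearest genes were Efna1, an ephrin ligand, at 0.070, then Cryaa, a small heat shock protein of the lens, at 0.081, Tpbpa, a trophoblast protein, at 0.091, Oxnad1 at 0.095 and Akap1, an anchor of protein kinase A, at 0.096. Efna1 read 124.4, 75.6 and 168.4 in SHA and 149.6, 93.9 and 148.3 in SLA, low in the pools numbered 2 as Igf2 was. For Igfbp2 the nearest were Ddx39b, an RNA helicase, at 0.096, Ptms, parathymosin, at 0.10, Stmn4, a stathmin, at 0.11, Grin2a, an NMDA receptor subunit, at 0.11 and Sardh, sarcosine dehydrogenase, at 0.11. Ddx39b read 998 in SLA pool 1 and between 509 and 647.5 in the other pools, with the same single high pool as Igfbp2.

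Other genes of the IGF and insulin axis, which include further receptors, carriers and insulin itself, were measured on 15 tested probe sets of 9 genes. None passed limma's test over all probe sets. Of the 15, 12 were lower and 3 higher in SHA, with a median of -0.29 against -0.01 over all probe sets. After quantile normalization 12 of 16 tested were lower, with a median of -0.21, and after median centring 12 of 15, with a median of -0.24. Genes with several probe sets, such as Ins1, Ins2 and Igfals, count more than once. At an unadjusted p under 0.05 there was 1 of 15, against 1.5% of all probe sets tested, and 2 had pools that did not overlap, against 5.66% of all.

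The 1 was Igfals, the acid-labile subunit that joins IGF and IGFBP3 in a long-lived complex in blood. Its probe set S46785_at read 87.2, 96.2 and 119.1 in SHA and 176.2, 158.1 and 178.3 in SLA. All SHA pools lay below all SLA pools, with means of 101 ± 16.4 and 171 ± 11.1 and a difference of -0.77 ± 0.34 (limma, unadjusted p = 0.047, adjusted p = 1.00). The second Igfals probe set of that sequence, S46785_g_at, differed by -0.53 ± 0.36, and the third, rc_AA924289_s_at, by -0.15 ± 0.42, both with overlapping pools.

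H19, a non-coding imprinted RNA gene beside Igf2 on chromosome 1, was the other whose pools did not overlap. X59864mRNA_g_at read 19.1, 15.0 and 31.2 in SHA and 38.1, 45.0 and 53.0 in SLA, a difference of -1.12 ± 0.63 (unadjusted p = 0.11, adjusted p = 1.00). Insr, the insulin receptor, read 41, 35.6 and 35.1 in SHA and 36.1, 74.7 and 78.9 in SLA, a difference of -0.68 ± 0.55. SLA pool 1 lay within the SHA range, and SLA pools 2 and 3 lay above it. Igf2r, which binds IGF2 and carries it to lysosomes, read 29.9, 216.5 and 61.5 in SHA and 34.5, 178.8 and 61.0 in SLA, a difference of 0.03 ± 0.82. It was high in the pools numbered 2 of both lines and closely alike between the lines within each number.

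Downstream of the receptors, 58 probe sets of 32 genes of the PI3 kinase and ERK branches were tested and none passed. They were split 28 higher to 30 lower with a median of -0.03, and 30 to 28 after median centring. None had an unadjusted p under 0.05, and 3 of 58 had pools that did not overlap, close to the 5.66% of all probe sets. Over the axis and the downstream genes together the count at an unadjusted p under 0.05 was 1, and 6 of 73 with the pool number as a block, where the same count over all probe sets was 345 (5.26%), none of them past adjustment. With the block the unadjusted p was 0.014 for Pik3r1 on U50412_at, 0.021 for Eif4ebp1, 0.024 for Pik3cd, a catalytic subunit of PI3 kinase, and 0.026 for Igfals (limma). It was 0.038 for Map2k1, a kinase of the ERK branch, on D14591_s_at and 0.047 for Akt2. The adjusted p was 0.83 for each of the 6. Without the block Map2k1 differed by 0.36 ± 0.31 on D14591_s_at, 0.15 ± 0.22 on L04485mRNA_s_at and -0.20 ± 0.46 on rc_AI178835_at.

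The smallest p among the downstream genes was that of Pik3r1, the regulatory subunit of PI3 kinase. U50412_at read 44.0, 65 and 15.6 in SHA and 142.3, 106.5 and 59.0 in SLA, a difference of -1.44 ± 0.65 (unadjusted p = 0.054, adjusted p = 1.00). SHA pool 2 lay above SLA pool 3, so the lines overlapped, while within each pool number SHA was the lower. The other Pik3r1 probe set tested, D64045_s_at, differed by -0.21 ± 0.62. Akt2, a kinase activated through PI3 kinase, had its 3 SHA pools above all SLA pools on rc_AI105076_s_at, at 90.3 ± 22.7 against 48.2 ± 17.9 (0.94 ± 0.51), while D30041_at read 102 ± 51.7 against 113 ± 16.5. Eif4ebp1, a repressor of translation that is released by mTOR signalling, differed by -0.83 ± 0.45 on rc_AI178828_i_at, and its other probe sets had unadjusted p-values of 0.93 and 0.99. Grb10, an adaptor that restrains insulin and IGF receptors, read 102 ± 33.3 against 163 ± 27.8 with no overlap (-0.73 ± 0.40). Grb2, an adaptor that links receptors to Ras, had pools that did not overlap on D49847_at, at 80.7 ± 4.98 against 122 ± 32.4 (-0.56 ± 0.40), and overlapping pools on its other probe sets. Irs1, a receptor substrate, differed by 0.66 ± 0.76, a value that depends on the floor set under SLA pool 1. Irs2, another substrate, differed by -0.48 ± 0.52 on AF050159_at and by 0.02 ± 0.73 on U89743_at. All of these had an adjusted p of 1.00.

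**Figure D4:**
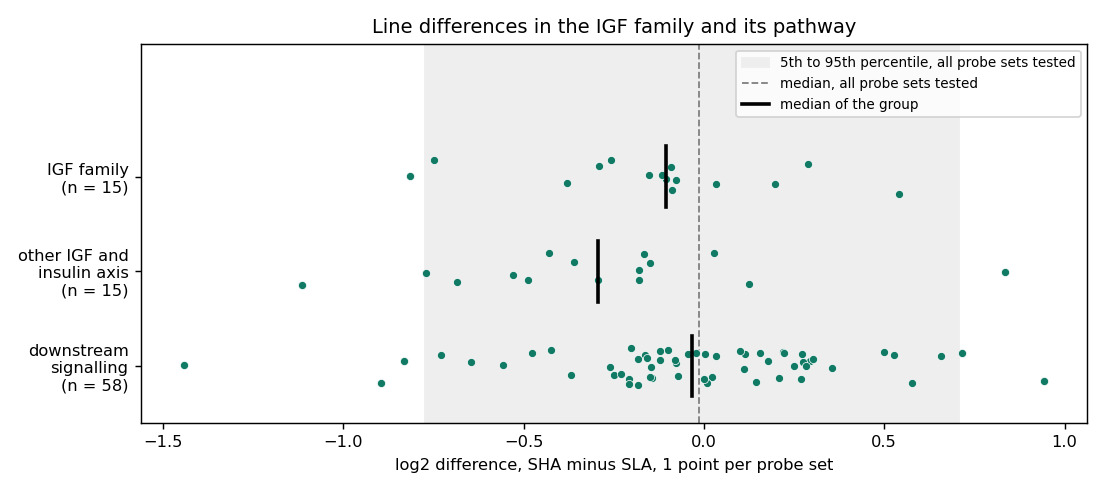
Log2 difference SHA minus SLA, 1 point per probe set, for the IGF family (15), the other genes of the IGF and insulin axis (15) and downstream signalling genes (58), with the group medians as black bars at -0.10, -0.29 and -0.03. The grey band spans the 5th to 95th percentile of all 6555 probe sets tested, -0.77 to 0.71, and holds most points of each group.

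Markers of cell types that can make IGF ligands or binding proteins were read beside these values. Neurogranin, a marker of hippocampal principal neurons, was bright in all pools, from 4273 to 7730. Of 10 principal neuron markers tested, 9 were higher in SHA, with a median of 0.16, and 9 were higher under both other scalings too. At an unadjusted p under 0.05 (limma) there was 1 of the 10, Nnat, an imprinted gene of neurons, against 1.5% of all probe sets tested. The marker lists were chosen with earlier results of these data known, so their counts are no independent support for a difference in a cell type. Their summed intensity lay between 18234 and 22970 in SHA and between 15669 and 20303 in SLA. Of 7 microglia markers tested, 7 were lower in SHA, with a median of -0.52, and 2 of the 7 had an unadjusted p under 0.05. Their summed intensity over 9 measured genes lay between 966 and 1068 in SHA and between 1208 and 1863 in SLA. Of 12 leptomeningeal and fibroblast markers tested, 10 were lower, with a median of -0.33, and the summed intensity lay between 1499 and 2125 in SHA and between 2076 and 2548 in SLA. Of 5 choroid plexus markers tested, 4 were lower, with a median of -0.18, and 3 were lower under either other scaling. Of 9 interneuron markers 7 were higher, with a median of 0.14. Of 10 endothelial and mural markers 7 were lower, with a median of -0.19. Of 7 astrocyte markers 5 were higher, with a median of 0.03, and of 6 oligodendrocyte markers 4 were lower, with a median of -0.15. Apart from the principal neuron and microglia lists, each of these lists had 0 at an unadjusted p under 0.05. No measured marker of these lists was at or below the floor in all pools. The part of these cell types in the IGF family values was not tested.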

How the data were processed

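The authors deposited a table with a linear intensity for each probe set on 6 arrays of hippocampal RNA. The software was not given in the sources used here. All arrays had a 2%-trimmed mean of 250.3 to 250.4, so the deposited intensities were taken as scaled, which hides any shift common to all transcripts. Of 8799 probe sets, 59 array controls were left out. Values under 8.9, the 10th percentile, were raised to this floor and log2 was taken. The dimmest 25% by mean log2 was dropped, which left 6555. Of 8740 probe sets, 7006 had 1 gene symbol, 308 several and 1426 none listed, with symbols updated by gene number from assembly GRCr8 (6985 matched).

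SHA and SLA were compared in limma 3.58.1 under R 4.3.3 (lmFit, eBayes with an intensity trend, two-sided, Benjamini-Hochberg over all tested probe sets, threshold 0.05), after a test on simulated data. Members, lists and tests were chosen with earlier results of these data known. Every probe set of the family was named or counted. Of the 2 pathway lists the genes with an unadjusted p under 0.05 or else the 4 of smallest p were named, with Insr, Igf2r, Irs1 and Irs2. H19, Grb2, Pik3cd and Map2k1, and Nnat of the marker lists, were named after their values were seen. The marker list not given in the results, for blood cells, had a median difference of -0.03 over 3 markers tested.

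The line means were removed first. SHA and SLA pools of the same number then correlated across probe sets at 0.44, 0.68 and 0.13 for numbers 1, 2 and 3. Correlations between pools of different numbers are not given here, so this check cannot show that the numbers pair the pools. No label says what the numbers share. The number of arrays limits the precision. Alternatives were other scalings, filters and floors, no trend, array weights, a block for the pool number, and each pool left out in turn.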

Additional observations from a re-analysis of the deposited data

How the results depend on the processing

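No IGF family probe set passed the adjusted threshold under any of the 16 alternatives, and its lowest adjusted p was 0.31, for Igf1 on M15481_at with the replicate block and array weights together. Of 222 values over those alternatives 26 had the sign opposite to the reported one, and 4 of the 15 probe sets kept 1 sign: both of Igf1 from M15481, Igf2 on X17012mRNA_s_at and Igfbp2 on J04486_at. The count of family probe sets at an unadjusted p under 0.05, which was 0, became 2 with the replicate block and array weights (Igf1 on M15481_at and M15481_g_at). It was 0 to 1 with a pool removed. The count with non-overlapping pools, also 0, was 1 once the filter was removed (Igfbp2 on A09811cds_s_at) and 0 to 3 with a pool removed, when fewer pools have to be separated. With the replicate block alone the family counts stayed at 0.

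Over all probe sets, none passed in limma except 12 with the replicate block and array weights. The 98 at an unadjusted p under 0.05 (24 higher, 74 lower) numbered 203 once the filter was removed and 63 when it took the dimmer 50%. Array weights gave 354, the replicate block 345 and these together 871. Removing a pool gave 57 to 152, with 62 and 151 for SHA pools 1 and 2, and 152 and 57 for SLA pools 2 and 3. After median centring the split was 32 higher to 60 lower. For the other pathway genes the count of 1 became 0 with median centring and with the floor at the 25th percentile, 2 with no filter, 4 with no intensity trend, 6 with array weights, also 6 under the replicate block, 14 with both together. With a pool removed it was 0 to 2, namely 2 without SHA pool 2 and 0 without SLA pool 2. The causes were not tested. Signal over the floor limits Igfbp1, Igfbp3, Irs1 and the dim probe sets of Igf1, Igf2 and Igfbp5.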
